A study of Mus musculus with 28 samples.

Results

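The 8 genes described here mark the GABAergic lineage of the forebrain: the transcription factor genes Sp9, Dlx1, Dlx2, Dlx5 and Lhx6, the glutamate decarboxylase genes Gad1 and Gad2, and the vesicular GABA transporter gene Slc32a1. They were chosen by symbol, and 8 of 8 were listed among the 13846 genes measured in embryonic cortex and among the 14104 genes measured in adult prefrontal cortex (PFC). RNA sequencing was done in mice carrying a knockout of Myt1l, whose product is a neuronal transcription factor with zinc fingers. At E14.5, an embryonic day of mid-gestation, cortex was taken from 6 wild-type (WT), 6 heterozygous (Het) and 4 homozygous (Hom) mutants. Adult PFC was taken from 6 WT and 6 Het mice, with 3 females and 3 males in each group. The age of the adults, the design of the Myt1l allele and the strain are not given in the labels, and no other allele or agent is named for any group. Each library carries its own identifier in the labels. Libraries are named here by genotype, labelled sex and number, such as Hom F01. At E14.5 the libraries labelled male were WT M03, Het M01, Het M07, Het M11 and Hom M02. All others were labelled female, so the sexes were not balanced between the embryonic genotypes.

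GABA, the main inhibitory transmitter of the adult cortex, is made from glutamate by the enzymes that Gad1 and Gad2 encode, and the product of Slc32a1 loads it into synaptic vesicles. Cortical projection neurons are born in the cortex itself and use glutamate. Most cortical interneurons are instead born in the ganglionic eminences below, where DLX homeodomain factors direct the GABAergic fate, and migrate into the cortex around mid-gestation. LHX6, a LIM homeodomain factor acting after them, is kept in the interneurons of the medial eminence, and the zinc-finger factor SP9 acts in striatal, cortical and olfactory bulb GABAergic neurons of the mouse.

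In embryonic cortex, 2 of the 7 genes tested, Sp9 and Dlx1, rose in Hom embryos, by 2.4-fold and 1.85-fold against WT, where 7.60% of all genes were called and 3.23% were called higher. Sp9 was high enough to be tested only through the mutant libraries. Dlx1 lost its call under 10 of 34 alternative settings. Neither was called without Hom F01 and Hom M02, an alternative chosen after seeing the data. No member passed the test in Het embryos or in adult Het PFC. In both tissues the highest values of most members sat in a few mutant libraries, which also held high RNA for some genes of neighbouring regions. In bulk tissue, a change in the number of cells of a type and a change in RNA per cell cannot be told apart.

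Values are CPM (counts scaled between libraries, here to a common upper quartile) recovered from the deposited log2 CPM, and changes are differences in log2(CPM + 0.5), which understate the change of low genes. A gene was called when its p-value, adjusted by Benjamini-Hochberg over all genes tested in the tissue with limma, was under 0.05. The recovered whole numbers per library summed to between 27827467 and 30811856 at E14.5 and to between 19601294 and 21275162 in the PFC. They had been scaled and adjusted by the authors, so sequencing depth is unknown. Myt1l itself was 55.5 ± 8.16 CPM in WT (SD, n = 6), 42.8 ± 11.1 in Het (SD, n = 6) and 20.2 ± 2.35 in Hom cortex (SD, n = 4), and 3 of 6 Het libraries (F02 at 59.5, M07 at 48.9 and F07 at 46) lay within the WT range. In the PFC it was 158 ± 8.48 in WT and 114 ± 6.7 in Het (SD, n = 6 each), with no overlap. Among embryos, Y-linked Ddx3y was 21.6 CPM in Het F10, labelled female, and 0 in Het M11, labelled male, so results on Het embryos that change without this pair are also given without it. Neurod6, a gene of cortical projection neurons, was at 1260 to 1869 CPM in embryonic libraries. Slc17a7, the vesicular glutamate transporter of such neurons, was at 227 to 300 CPM in the PFC.

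Of the 8 genes, 7 lie on chromosome 2 and Dlx5 lies on chromosome 6 (GRCm38, GENCODE vM21). Dlx1, at 71528113 to 71533981 on the plus strand, and Dlx2, at 71543408 to 71546754 on the minus strand, are neighbours whose ends are 9427 bases apart. Sp9 spans 73271925 to 73284706 on the plus strand. Gad1 spans 70553072 to 70602014 on the plus strand. Lhx6 lies at 36081953 to 36105408 on the minus strand, Gad2 at 22622205 to 22693874 and Slc32a1 at 158610767 to 158615748, both on the plus strand. Dlx5 lies at 6877805 to 6882085 on the minus strand of chromosome 6. Exons of Sp9 share 270 bases with those of Cir1 on the opposite strand, those of Dlx1 share 335 bases with the antisense gene Dlx1as, and those of Slc32a1 share 697 bases with Gm14205. The sources used here do not state whether counting took strand into account, so reads from these overlaps cannot be assigned to 1 gene.

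The 250 bases before the RefSeq start are shown for the called members, Sp9 and Dlx1, and for Dlx2, the neighbour of Dlx1 (RefSeq, GRCm38.p6, each on its gene's own strand). Capitals mark a GC box, the core GGGCGG or its complement CCGCCC, which SP family factors bind. The windows are chr2:73271676-73271925 (plus) for Sp9, chr2:71529195-71529444 (plus) for Dlx1 and chr2:71546755-71547004 (minus) for Dlx2. The RefSeq start of Dlx1 lies inside the gene as GENCODE gives it, so this window is within the GENCODE gene.
Sp9: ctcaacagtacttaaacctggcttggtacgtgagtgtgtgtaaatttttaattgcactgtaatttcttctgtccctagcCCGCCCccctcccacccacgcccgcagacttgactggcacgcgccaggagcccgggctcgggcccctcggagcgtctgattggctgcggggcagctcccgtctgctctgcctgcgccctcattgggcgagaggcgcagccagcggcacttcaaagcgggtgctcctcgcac
Dlx1: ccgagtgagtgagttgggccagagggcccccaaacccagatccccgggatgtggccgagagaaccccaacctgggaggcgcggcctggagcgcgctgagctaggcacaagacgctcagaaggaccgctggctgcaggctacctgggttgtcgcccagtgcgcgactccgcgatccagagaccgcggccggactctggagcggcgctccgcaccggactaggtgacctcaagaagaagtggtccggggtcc
Dlx2: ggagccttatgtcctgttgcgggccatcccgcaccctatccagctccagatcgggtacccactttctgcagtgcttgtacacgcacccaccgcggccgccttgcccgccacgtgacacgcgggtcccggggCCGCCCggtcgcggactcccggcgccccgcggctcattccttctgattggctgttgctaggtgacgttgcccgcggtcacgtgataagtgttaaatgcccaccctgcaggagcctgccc
A GC box began 171 bases before the start of Sp9 and 119 bases before that of Dlx2, while that of Dlx1 began 11 bases after its start, outside the printed stretch. Over the 7 members with a RefSeq window of 300 bases (250 before and 50 after the start), 5 held a GC box, against 35.7% of all 32851 promoters. AAGTT, the core bound by the MYT1 family, was found on either strand in 1 of 7 members, Lhx6, against 39.3% of promoters. TAATTA, a homeodomain core, was found in 0 of 7 against 5.29%. TATAAA, the sequence of a TATA box, was found in Lhx6 and Gad1 against 13.6% of promoters. It lay at position 4 from the start in 1 of 3 windows of Lhx6. In Gad1 it lay at position -141, on the opposite strand. Lhx6 had 3 windows in which to hold a motif, while the shares are per single promoter.

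In WT embryonic cortex, levels per kb of exon ran from 4.12 ± 1.06 CPM per kb for Dlx5 down to 0.106 ± 0.0909 for Slc32a1 (SD, n = 6). Between them came Dlx1 at 2.16 ± 0.558, Lhx6 at 1.72 ± 0.453, Gad2 at 0.884 ± 0.429, Dlx2 at 0.634 ± 0.26, Gad1 at 0.41 ± 0.17 and Sp9 at 0.252 ± 0.119 CPM per kb. Of these neighbours, Dlx5 and Dlx1 were separated by more than 1 SD on each side, and the others overlapped. Taken per kb of the longest transcript instead of all exons, Gad1 (0.87) stood above Dlx2 (0.732). In WT adult PFC the synthesis genes led, with Gad1 at 26.3 ± 1.38 and Gad2 at 11.6 ± 1.09 CPM per kb of exon (SD, n = 6). Dlx5 followed at 5.33 ± 1.39, Dlx1 at 3.54 ± 0.406, Lhx6 at 2.34 ± 0.302 and Slc32a1 at 2.12 ± 0.443, and Dlx2 (0.237 ± 0.101) and Sp9 (0.195 ± 0.0825) were lowest. In this adult order Dlx5 overlapped Dlx1, Lhx6 overlapped Slc32a1 and Dlx2 overlapped Sp9 within 1 SD. The 2 tables were scaled separately, so the tissues were not tested against each other.

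**Figure D1:**
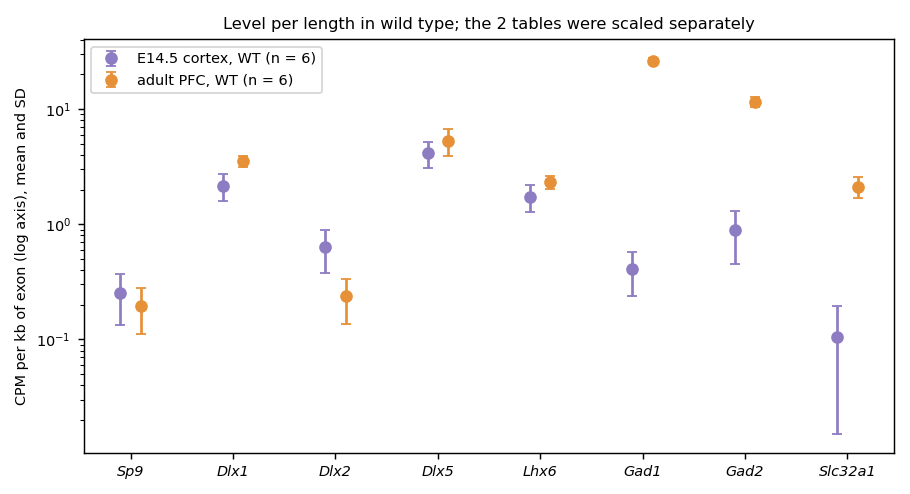
Level of each member in WT libraries, as CPM per kb of exon on a log axis, mean and SD of 6 libraries per tissue. Gad1 is at 0.41 in embryonic cortex and at 26.3 in adult PFC, while Dlx5, Dlx1 and Lhx6 stand in that order in both, at 4.12, 2.16 and 1.72 and at 5.33, 3.54 and 2.34.

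Sp9 showed the clearest difference in embryonic cortex. Its 4 Hom libraries were at 5.06 CPM (F01), 2.56 (F04), 2.23 (F09) and 6.76 (M02). The lowest, median and highest WT libraries were at 0.619, 1.15 and 2.19 CPM. Every Hom library therefore lay above every WT library, with Hom F09 only just above. Het libraries ran from 1.09 through a median of 3.3 to 4.47 CPM, and 4 of 6 exceeded the highest WT. Over all genes tested, 3.23% were called higher in Hom than in WT and 4.37% lower. Sp9 passed the filter of 1 CPM in 4 libraries through the mutant groups, since 3 of 6 WT libraries reached 1 CPM. Sp9 was called, at a log2 change of 1.26 (95% interval 0.69 to 1.84, limma adjusted p = 0.00811), the 4th largest rise of 12429 genes. Leaving out each library in turn, the change stayed between 1.05 and 1.43, with adjusted p of at most 0.0466. Cir1, which overlaps Sp9 and encodes a corepressor-interacting protein, was 12.9 ± 1.19 CPM in WT (SD, n = 6) and 16.6 ± 2 in Hom (SD, n = 4). Its log2 change was 0.36 (adjusted p = 0.116), and its part in the reads of Sp9 was not tested.

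Dlx1, with Dlx2 an early driver of the GABAergic fate, was the other called member. Hom libraries were at 37.6 CPM (F01), 16.5 (F04), 13.7 (F09) and 27.5 (M02), against 8.07, 12.2 and 15.6 CPM for the lowest, median and highest WT libraries. Thus 3 of 4 Hom libraries exceeded the highest WT, and Hom F09 overlapped the WT range. The log2 change was 0.89 (95% interval 0.40 to 1.38, limma adjusted p = 0.0262). The call was lost on leaving out Hom F01 (log2 change 0.59, adjusted p = 0.0717), Hom M02 (0.89, adjusted p = 0.066), WT F12 (0.82, adjusted p = 0.0544) or WT F04 (0.90, adjusted p = 0.0579). It was also lost, at a log2 change of 0.89 to 0.91, with only the 2 groups compared (adjusted p = 0.0626), with eBayes without trend and robust (0.0555), with the directions removed by RUVr as covariates (0.0512) and in libraries labelled female (0.096). Het libraries ran from 14.1 through 19.2 to 25.7 CPM, and 6 of 6 lay above the WT mean of 11.7.

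Dlx2 and Dlx5, homeodomain genes of the same family, split the Hom libraries in 2. Dlx2 was at 8.37 CPM in Hom F01 and 4.44 in Hom M02, but at 1.57 in F04 and 0.811 in F09, with WT libraries at 0.783, 1.87 and 2.72 (lowest, median, highest). Dlx5 was likewise at 26.9 CPM in F01 and 19.3 in M02, against 7.64 in F04 and 6.73 in F09, and WT libraries ran from 6.53 through 9.85 to 11.9. For both genes, F01 and M02 stood above every WT library and F04 and F09 within the WT range. The log2 changes were 0.51 for Dlx2 (95% interval -0.39 to 1.42, limma adjusted p = 0.512) and 0.43 for Dlx5 (95% interval -0.24 to 1.11, adjusted p = 0.445).

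Lhx6 was at 14 CPM in Hom F01, 9.96 in F04, 7 in F09 and 13.3 in M02, against 5.09, 8.62 and 11.4 in WT. F01 and M02 were again the libraries above the WT range. The log2 change was 0.40 (95% interval -0.15 to 0.95, limma adjusted p = 0.382).

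The synthesis genes followed the same split and were not called. Gad1 was at 6.59 CPM in F01, 3.68 in F04, 3.24 in F09 and 6.46 in M02, with WT at 1.74, 2.98 and 5.37. Gad2 was at 14.4 CPM in F01, 3.86 in F04, 3.92 in F09 and 8.72 in M02, with WT at 1.94, 5.14 and 8.98. F01 and M02 exceeded every WT library for Gad1, and F01 alone did for Gad2. The log2 changes were 0.56 for Gad1 (95% interval -0.21 to 1.33, limma adjusted p = 0.389) and 0.38 for Gad2 (95% interval -0.53 to 1.3, adjusted p = 0.636). Slc32a1 was near the limit of the table: 0.376, 0.205, 0.203 and 1.08 CPM in Hom F01, F04, F09 and M02, and 0.0681, 0.256 and 0.68 in WT. A floor of 3 whole-number steps was worth 0.1 to 0.103 CPM here, covering counting error only, and Slc32a1 did not pass the filter of 1 CPM in 4 libraries, so it was not tested.

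**Figure D2:**
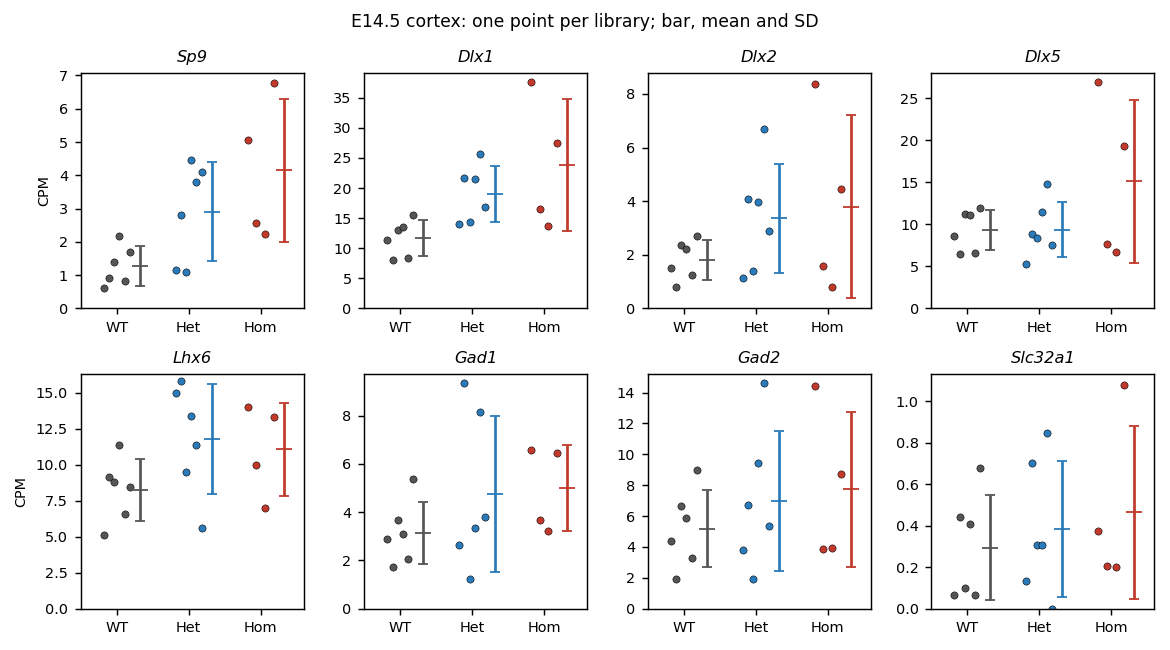
CPM of the 8 members in E14.5 cortex, 1 point per library, with mean and SD beside each group (WT 6, Het 6, Hom 4). The Hom points of Dlx2 and Dlx5 separate into a high pair (F01 and M02) and a low pair (F04 and F09), while those of Sp9 all lie above the highest WT value of 2.19.

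The 7 tested members had a median log2 change of 0.51 in Hom against WT, with 7 of 7 above 0, beside a median of 0.02 over all genes tested. The members varied together over the embryonic libraries (median Pearson r 0.768), so they are not 7 separate results. A sum of 4 genes of neurons, Tubb3, Snap25, Syt1 and Rbfox3, put together after values were seen and all listed, was lower in Hom. It was between 3827 and 4431 CPM in Hom, 3937 and 4688 in Het and 4514 and 5424 in WT, so that Hom lay below every WT library. Other neuronal genes did not fall with them. In Hom, Dcx was at a log2 change of 0.21 (limma adjusted p = 0.094), and 12 of 13 genes of the projection neuron lineage were above 0. The part of these genes in the members' values was not tested. Hom F01 and Hom M02 were also the Hom libraries with high RNA for Isl1, a homeodomain gene of striatal neurons, at 16.4 and 16 CPM. Isl1 was 12.7 CPM in Het M07, at most 5.11 in the other 13 libraries, and 0 in WT F05 and Het F02. Of the 15 striatal genes examined, 13 were listed, Isl1 among them. They summed to between 61.8 and 71.8 CPM in WT, 70.5 and 106 in Het and 68.8 and 91 in Hom. The sums of Hom F01 and Hom M02, 91 and 90.8 CPM, include Isl1. Of the 12 striatal genes tested, 7 were above 0 in Hom, with a median log2 change of 0.10. Ikzf1 (-0.41), Rxrg (-0.32), Foxp2 (-0.17), Six3 (-0.11) and Ebf1 (-0.03) were below 0. Only Ppp1r1b, which encodes a striatal phosphatase regulator, was called in Hom (log2 change 0.72, limma adjusted p = 0.027). Zic1 and Zic4, zinc-finger genes of the septum, were at 20.9 and 62.6 CPM in Hom M02 and at 21.4 and 57.1 in Het M07, above the WT maxima of 13.5 and 52.1. Of 7 genes examined for septum, preoptic area and hypothalamus, 4 were listed. They summed to between 33.8 and 72.4 CPM in WT and between 31.8 and 89.9 in Hom. Hom F01 was at 61.4, within the WT range. Lhx8 was at 0 in WT F05 and F12 and in Hom F04. In Hom against WT, Zic1 was at a log2 change of 0.35, Zic2 at -0.11 and Zic4 at -0.24, and none was called. The part of these striatal and septal genes in the members' values was not tested.

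Without Hom F01 and Hom M02, an alternative chosen after seeing the data that leaves 2 Hom libraries, no member was called. Since these were also the highest Hom libraries for every member, a smaller change follows in part from the choice. Sp9 was then at a log2 change of 0.93 (limma adjusted p = 0.169) and Dlx1 at 0.46 (adjusted p = 0.268), while Dlx2 (-0.28), Dlx5 (-0.24) and Gad2 (-0.06) turned below 0. The median over the 7 tested members was 0.016, with 4 of 7 above 0. The number of genes called over the whole table fell to 162 from 944 under the same change.

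**Figure D3:**
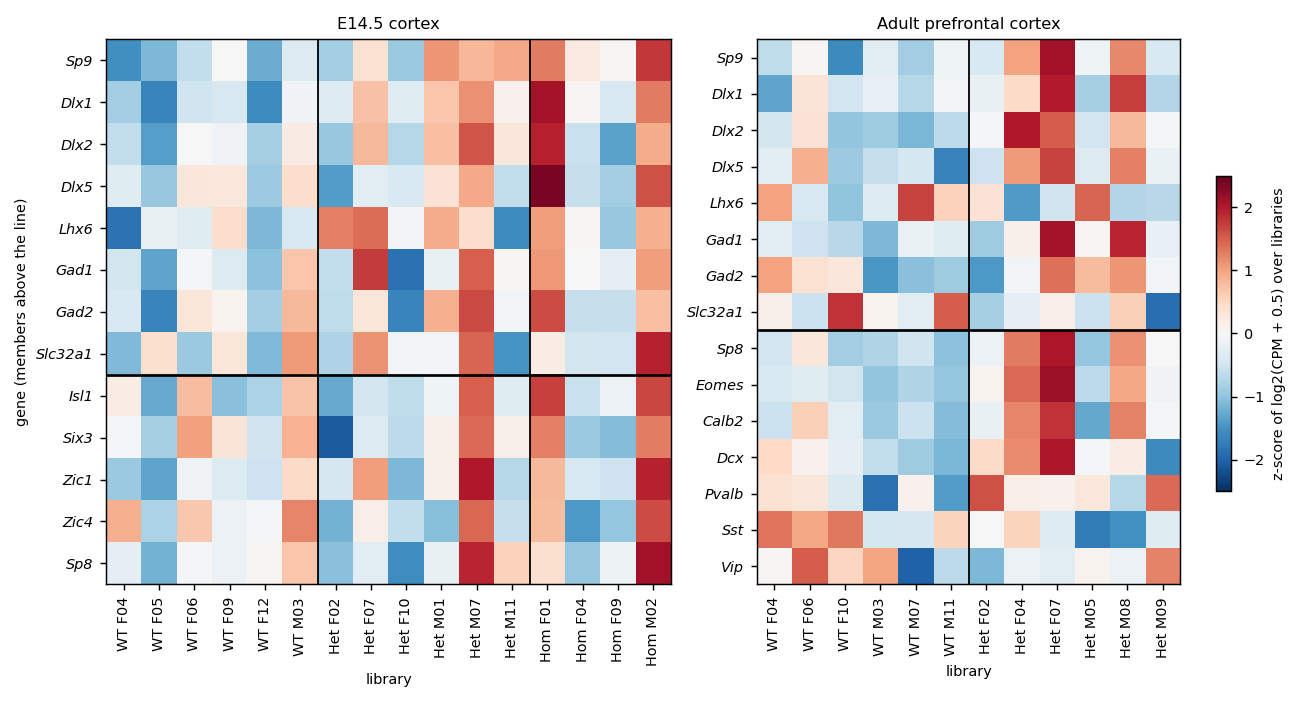
z-scores of log2(CPM + 0.5) over the libraries of each tissue (columns, with lines between genotypes) for the 8 members (above the line) and for genes of other regions or neuron types (below). Hom F01, Hom M02 and Het M07 are high for most members and for Isl1 (16.4, 16 and 12.7 CPM), and in the PFC Het F04, Het F07 and Het M08 are high for Sp9, Dlx1 and Dlx5 and for Sp8, Eomes and Calb2.

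In Het embryos 0 of 7 tested members were called, beside 5.83% of all genes (2.84% higher and 2.98% lower), and Sp9 and Dlx1 had an unadjusted p under 0.05. Hom and Het were compared with the same 6 WT libraries, so the values that follow are not independent of those above. The log2 change was 0.55 for Sp9 (95% interval 0.01 to 1.09, limma adjusted p = 0.21), 0.55 for Dlx1 (95% interval 0.09 to 1, adjusted p = 0.145) and 0.49 for Lhx6 (95% interval -0.03 to 1.01, adjusted p = 0.251). It was 0.35 for Dlx2, 0.16 for Gad1, -0.03 for Gad2 and -0.21 for Dlx5, each with an interval spanning 0. The median over the 7 was 0.35, with 5 above 0, beside 0.03 over all genes. Lhx6 libraries of Het embryos ran from 5.61 through 12.4 to 15.8 CPM, and 3 of 6 lay above the highest WT. Without Het F10 and Het M11, whose labelled sex did not match their RNA, Lhx6 was called (log2 change 0.74, adjusted p = 0.0353), and it was then the 1 called member. These libraries held the lowest Het values of Lhx6 (9.5 and 5.61 CPM), so a larger change follows in part from leaving them out. With all libraries kept and no sex term, Lhx6 was at 0.46 (limma adjusted p = 0.238) and was not called. Without that pair Gad1 was at 0.56, Dlx2 at 0.56 and Gad2 at 0.36, none of them called, and the median over the members was 0.56. Genes of choroid plexus and meninges, tissues next to the cortex, had higher median sums in Het, with ranges that overlapped WT. The 5 choroid plexus genes, all listed, summed to between 3045 and 5281 CPM in Het and 1430 and 4057 in WT. Of these 0 were called, with Ttr, which encodes transthyretin, at 0.73 (limma adjusted p = 0.14). The genes listed for septum, preoptic area and hypothalamus had a lower median sum in Het (37.4 CPM) than in WT (51.3). The 5 meningeal genes, all listed, summed to between 219 and 328 CPM in Het and 141 and 299 in WT. Of these 1 was called, Ogn, a matrix proteoglycan gene (0.76, adjusted p = 0.0221). Their part in the members' values was not tested. Sp9 without the sex term was at 0.86 (adjusted p = 0.102).

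Single Het libraries stood apart for other members. Gad1 was 9.34 CPM in Het F07 and 8.14 in Het M07, and the remaining 4 Het libraries lay between 1.22 and 3.82. Gad2 was highest in Het M07 (14.6 CPM) and Dlx2 likewise (6.68 CPM), both above every WT library. Het F10 held the lowest Gad1 and Gad2 (1.22 and 1.93 CPM) of all 16 embryonic libraries. Leaving out Het F07 turned the log2 change of Gad1 from 0.16 to -0.27.

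Between Hom and Het embryos 0 of 7 tested members were called, and Sp9 had an unadjusted p under 0.05. In that comparison 1 gene of 12429 (0.00805%), Myt1l, was called. The log2 difference was 0.71 for Sp9 (95% interval 0.13 to 1.3, limma adjusted p = 0.957) and 0.64 for Dlx5 (95% interval -0.04 to 1.33, adjusted p = 0.957), higher in Hom. For Dlx1 it was 0.34 (95% interval -0.15 to 0.84), and for Lhx6 -0.09 (95% interval -0.65 to 0.48). Without Het F10 and Het M11, Gad1 moved from 0.40 to 0.015 and Gad2 from 0.42 to 0.027, and the median over the members from 0.40 to 0.027. The intervals are wide enough that neither an equal level nor a further rise with the lost copy is shown.

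**Figure D4:**
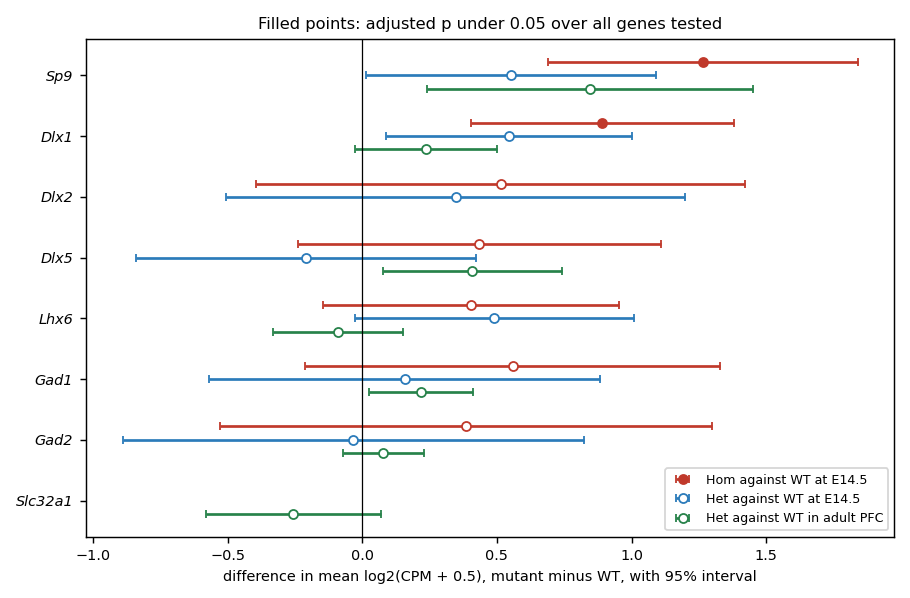
Difference in mean log2(CPM + 0.5), mutant minus WT, with 95% intervals, for each tested member in 3 comparisons; filled points have an adjusted p under 0.05. Only Sp9 (1.26) and Dlx1 (0.89) in Hom embryos are filled, and Slc32a1 at E14.5 and Dlx2 in the PFC were not tested.

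In adult PFC, 0 of 7 tested members were called, beside 0.404% of all genes (0.179% higher and 0.225% lower). Sp9, Dlx5 and Gad1 had an unadjusted p under 0.05. Sp9 ran from 1.07 through 2.02 to 5.14 CPM in Het and from 0.346 through 1.02 to 1.47 in WT. The Het values above the WT range were those of F07 (5.14), M08 (3.05) and F04 (2.72). The log2 change was 0.85 (95% interval 0.24 to 1.45, limma adjusted p = 0.19), and 6 of 6 Het libraries lay above the WT mean. Sp9 passed the filter of 1 CPM in 6 libraries through the Het group, since 3 of 6 WT libraries reached 1 CPM. Cir1 was 19.9 ± 2.57 CPM in WT and 22.1 ± 2.51 in Het (SD, n = 6 each).

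The 3 Dlx genes were high in the same 3 Het libraries. Dlx1 was at 30.9 CPM in Het F07, 29.4 in M08 and 22.8 in F04, with WT at 15.8, 19.3 and 22.1 (lowest, median, highest) and the other Het libraries between 17.4 and 19.9. Dlx5 was at 22.3, 19.8 and 18.6 CPM in F07, M08 and F04, above the highest WT of 17.7, and at 11.7 to 13 in the other Het libraries. Dlx2, below the filter and not tested, was at 2.25, 1.57 and 2.87 CPM in these 3, above the highest WT of 1.22. The log2 changes were 0.24 for Dlx1 (95% interval -0.03 to 0.50, limma adjusted p = 0.42) and 0.41 for Dlx5 (95% interval 0.08 to 0.74, adjusted p = 0.249). Lhx6 did not share the pattern: Het ran from 9 through 10 to 13 CPM and WT from 9.49 through 11 to 13.4, with a log2 change of -0.09 (95% interval -0.33 to 0.15, adjusted p = 0.771).

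Gad1 reached 295 CPM in Het F07 and 287 in M08, against 183, 204 and 212 in WT (lowest, median, highest) and 190 to 220 in the other 4 Het libraries. Its log2 change was 0.22 (95% interval 0.02 to 0.41, limma adjusted p = 0.303). Gad2 ran from 60.6 through 72.2 to 79.5 CPM in Het and from 60.5 through 67.8 to 76.8 in WT, at a log2 change of 0.08 (95% interval -0.07 to 0.23, adjusted p = 0.665). Slc32a1 went the other way, from 3.52 through 4.89 to 6 CPM in Het and from 4.74 through 5.44 to 7.71 in WT. The groups overlapped, with 3 of 6 Het libraries below the lowest WT, and the log2 change was -0.26 (95% interval -0.58 to 0.07, adjusted p = 0.485).

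**Figure D5:**
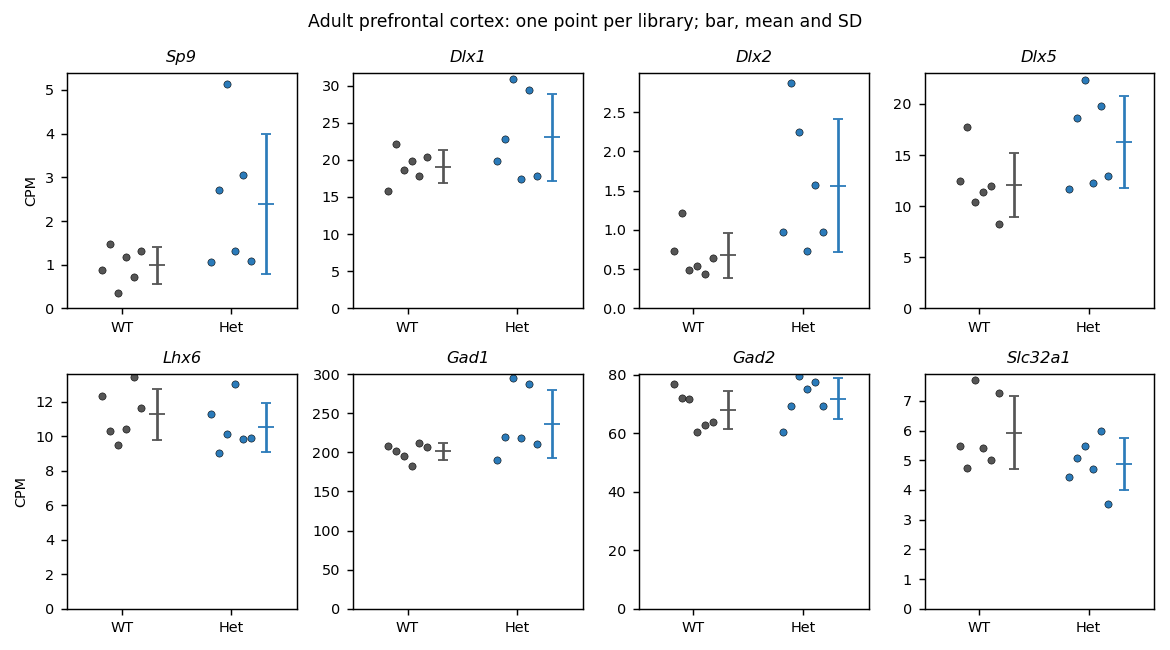
CPM of the 8 members in adult PFC, 1 point per library, with mean and SD beside each group (6 WT and 6 Het). Of 6 Het points, 3 lie above every WT point for Sp9, Dlx1, Dlx2 and Dlx5, and 3 of 6 lie below every WT point for Slc32a1.

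Het F07, F04 and M08 were also the PFC libraries with the highest RNA for Sp8, a zinc-finger paralog of Sp9 used by olfactory bulb interneurons, at 38.7, 24.7 and 22.6 CPM against at most 13.3 in the other 9 libraries. Eomes, a T-box gene of olfactory bulb projection neurons, was at 4.26, 2.48 and 1.72 CPM against at most 0.781, and Calb2, the calretinin gene, at 302, 218 and 222 CPM against at most 156. Th, which encodes tyrosine hydroxylase, was at 59.9, 41.7 and 44.5 CPM against at most 31.6. Over a list of 10 genes of olfactory bulb neurons and their precursors, put together after these values were seen, 10 of 10 were listed and summed to between 114 and 277 CPM in WT and to 562, 396 and 393 in Het F07, F04 and M08. The other 3 Het libraries summed to between 112 and 198, within the WT range except for the lowest. Their part in the members' values was not tested. Without these 3 libraries, an alternative chosen after seeing the data that takes out the highest Sp9, Dlx1, Dlx2 and Dlx5 values, so that a smaller change follows from the choice, the log2 change was 0.17 for Sp9 (limma adjusted p = 0.914), 0.10 for Dlx5, 0.03 for Gad1 and -0.04 for Dlx1.

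Females and males of the PFC groups were set against each other by an interaction term, which called 0 of 7 members and 0 of all 12870 genes (0%) with limma. Over all genes, 1092 had an unadjusted p under 0.05. Gad2 was the 1 member among them, with Het minus WT at -0.08 in females and 0.24 in males (interaction 0.32, 95% interval 0.05 to 0.60, adjusted p = 0.525). For Sp9 the same differences were 1.21 in females and 0.48 in males (interaction -0.73, 95% interval -1.92 to 0.45, adjusted p = 0.744).

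Gad1 and Gad2 encode 2 forms of 1 enzyme, so their ratio within a library was compared, as log2((Gad1 CPM + 0.5)/(Gad2 CPM + 0.5)). Scaling of the library cancels from this ratio except through the added 0.5, which weighs most at the low embryonic values. The mean log2 ratio of Gad1 to Gad2 was -0.59 ± 0.26 in WT embryos (SD, n = 6), -0.52 ± 0.59 in Het (SD, n = 6) and -0.44 ± 0.44 in Hom (SD, n = 4), with Gad2 the more abundant by CPM. No difference from WT beyond the spread was detected by exact two-sided permutation tests, in Hom (p = 0.514, adjusted over 3 tests 0.771) or in Het (p = 0.788, adjusted 0.788). In the PFC Gad1 was the more abundant, at 1.56 ± 0.13 in WT and 1.7 ± 0.15 in Het (SD, n = 6 each), with 5 of 6 Het libraries above the WT mean (exact permutation p = 0.13, adjusted 0.39).

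Related genes were read from lists of other members of the pathway. Among 20 further transcription factors of GABAergic neurons, 12 were tested at E14.5 and 3 rose in Hom, where 3.23% of all genes did: Maf (log2 change 0.83, limma adjusted p = 0.0111) and Satb1 (0.59, adjusted p = 0.0141), both active in interneurons of the medial eminence, and Zeb2 (0.35, adjusted p = 0.0137), which steers interneurons away from the striatum in the mouse. The median over the 12 tested was 0.34, beside 0.02 over all genes. Of these 10 were above 0, Etv1 (-0.30) and Sox6 (-0.06) were below, and none was called lower. Maf (0.72, adjusted p = 0.0209) and Satb1 (0.50, adjusted p = 0.0302) also rose in Het against the same WT libraries, where 2.84% of all genes did. Satb1 and Zeb2 are expressed by other cortical cells too. Of 14 genes of GABA metabolism and transport, 13 were tested and 0 were called in Hom by limma. The lowest p belonged to Glul, the glutamine synthetase gene, at -0.24 (adjusted p = 0.095). Of 12 genes of interneuron receptors and migration, 12 were tested and 0 were called, with Erbb4, the neuregulin receptor gene, at 0.74 (adjusted p = 0.0843) and Cxcr4, the chemokine receptor gene that guides interneurons in their stream, at 0.21 (adjusted p = 0.395). Glutamatergic lineage genes moved as well: of 13 tested, Emx2 (0.56, adjusted p = 0.00736) and Tbr1 (0.45, adjusted p = 0.0324) rose in Hom, and the list's median was 0.30. Of 13 markers of interneuron subtypes, 8 were tested and 0 were called in Hom by limma, with 3 of 8 above 0 and a median of -0.0060. Cck, the cholecystokinin gene, had the lowest p (0.87, adjusted p = 0.0884).

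In the PFC 0 genes of these lists were called by limma. The lowest adjusted p belonged to Ackr3, a chemokine receptor gene of the migration list, at a log2 change of 0.38 (adjusted p = 0.0982), and Dcx, a gene of migrating neurons, was at 0.45 (adjusted p = 0.239). Nearest among metabolic genes was the GABA transporter gene Slc6a11 at 0.27 (adjusted p = 0.165), and among transcription factors Sp8 was at 0.96 (adjusted p = 0.323) and Meis2 at 0.20 (adjusted p = 0.186). Of 13 markers of interneuron subtypes, 12 were tested, with Calb1 at -0.27 (adjusted p = 0.136), Nos1 at 0.38 (adjusted p = 0.315), Sst at -0.16 (adjusted p = 0.155), Pvalb at 0.20 (adjusted p = 0.266) and Vip at -0.01 (adjusted p = 0.958). Sst was 609 ± 47.8 CPM in WT and 547 ± 47.7 in Het (SD, n = 6 each), and Pvalb was 93.5 ± 12.5 and 108 ± 14.

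Members varied together over the 16 embryonic libraries, which share 1 scaling and adjustment. Of 21 pairs of tested members, 21 had a Pearson r above 0, from 0.393 to 0.91 with a median of 0.768, and the median after removal of genotype means was 0.778. In the PFC the median over 21 pairs was 0.187, with 13 above 0. The other genes whose pattern was most like the members' mean z-score at E14.5 were Zic1 (r = 0.882), Pdcl (0.834), Dclk2 (0.831), Tmf1 (0.82), Rnf227 (0.817), Stbd1 (0.812), Sox1 (0.794), Ryk (0.788) and Fbxo11 (0.786), over 16 libraries. In the PFC they were Ankrd6 (r = 0.946), Ppp1cc (0.907), Pacsin2 (0.876), Map4k3 (0.869), Pde5a (0.866), Tiam1 (0.866), Card10 (0.864), Map3k20 (0.862), Sipa1l2 (0.853) and Meis1 (0.851), over 12 libraries. These r values are descriptions, with no test.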

How the data were processed

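Per the labels' protocols, a Zymo kit yielded total RNA, and the SMARTer Ultra Low kit was used to make libraries. Trimmomatic, Bowtie2, STAR and HTSeq and the build mm10 are named in the submitters' processing notes, with neither role nor version. The authors deposited 1 table per tissue of log2 CPM after RUVr, which removes unwanted variation estimated from residuals. The values themselves showed a prior count of 2 and a common upper quartile, and inverted to whole numbers in 100% of cases (tolerance 0.01). Since these numbers were adjusted, no count test was used.

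A gene was tested if 4 or more E14.5 libraries, or 6 or more PFC libraries, reached 1 CPM, 12429 and 12870 in all. log2(CPM + 0.5) was fitted with limma 3.58.1 in R 4.3.3 (eBayes with trend and robust), with genotype and labelled sex as terms and all libraries of a tissue in 1 fit. The script was tested on simulated data. Exact permutation tests used scipy 1.17.1, and figures matplotlib 3.10.9. The members, lists and tests were chosen with earlier results of these data known. Named genes are Myt1l, the members, up to 4 genes of each list with the lowest p in Hom at E14.5 or in the PFC, and the 10 genes per tissue most like the members; Cir1, Cxcr4, Th, Sp8, Eomes, Calb2, Vip and the region markers given by library were added after their values were seen. Some items that met these rules are not reported here. Nothing states that libraries of a group are separate litters, and each has its own identifier. The replicate number is the last part of each identifier, so same-numbered libraries of a tissue differ in prefix by construction. The prefixes therefore cannot show whether replicate numbers paired libraries. Alternatives covered the pseudocount, filter, scaling, covariates, blocks, variance model, GC and length, the RUVr directions and left-out libraries.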

Additional observations from a re-analysis of the deposited data

How the results depend on the processing

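Of 972 values of single members under alternatives, 927 kept their direction and their side of the threshold, 12 lost the call, 1 gained it and 32 changed sign. Most of these values belong to members that were not called, which had no call to lose. Only Sp9 and Dlx1 in Hom against WT could lose one. Sp9 did so in 2 of 33 alternatives and Dlx1 in 10 of 34. The number of members called in Hom against WT was 2. It was 1 with a filter of 5 CPM, with only the 2 groups compared, without trend and robust, with the RUVr directions as covariates, and in libraries labelled female (the lost call was Sp9 at 5 CPM and Dlx1 in the others), 0 without Hom F01 and Hom M02 with or without Het M07, and 1 to 2 on leaving out each library. In Het against WT it went from 0 to 1 without Het F10 and Het M11. Sp9 in Hom was not tested at 5 CPM and was otherwise called except without those Hom libraries.

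Sign changes at E14.5 were as follows. Without Hom F01, Hom M02 and Het M07, Hom against WT was -0.31 for Dlx2, -0.26 for Dlx5 and -0.089 for Gad2; with Het M07 kept it was -0.28, -0.24 and -0.056. Under the same 2 settings Hom against Het was -0.066 and -0.087 for Dlx1, -0.56 and -0.62 for Dlx2, and -0.0090 and -0.045 for Dlx5. Dlx2 in Hom against Het was -0.043 without the sex term and -0.047 without Het F10 and Het M11. Gad2 in Het against WT was 0.29 without the sex term and 0.36 without Het F10 and Het M11. On leaving out each library, Hom against WT ran from -0.061 to 0.91 for Dlx2 and from -0.074 to 0.55 for Gad2, and Het against WT from -0.27 to 0.47 for Gad1 and from -0.23 to 0.23 for Gad2. Hom against Het ran from -0.35 to 0.52 for Dlx2 and from -0.29 to 0.10 for Lhx6, and the Gad1 to Gad2 ratio in Het from -0.12 to 0.24. In the PFC without Het M08, Het F04 and Het F07, Dlx1 was -0.044 and Lhx6 0.0047.

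Correlations of deviations between same-numbered libraries ran from -0.486 to 0.181 at E14.5 and were 0.146 and -0.196 in the PFC. No pairing by replicate number was seen in them. With the replicate block, 2 members stayed called in Hom against WT, Gad2 in Het was 0.043 and the interaction for Gad1 was -0.030. The block called 803, 736, 0 and 18 genes in Hom against WT, Het against WT, Hom against Het and the PFC.

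Over all genes, calls in Hom against WT (944) ran from 162 without Hom F01 and Hom M02 to 1379 with only the 2 groups compared, with 468 without trend and robust and 511 with the RUVr directions. For Het against WT (724) they ran from 131 without Het F07 to 1177 without Het M07. PFC calls (52) ran from 0 without trend and robust to 127 without Het M09. Of the calls, 401 were higher and 543 lower in Hom, 353 and 371 in Het, and 23 and 29 in the PFC. Median centring called 294 and 746, 213 and 509, and 20 and 51, GC and length correction 231 and 609 in Hom and 115 and 454 in Het, TMM 265 and 546 in Het and 24 and 61 in the PFC, and voom weights 706 and 364 in Hom. The cause was not tested. Depth before adjustment is unknown, and Sp9, Dlx2 and Slc32a1 are near the low end.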
